A study of Mus musculus with 9 samples.

Results

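The 9 genes described here encode the receptor TREM2, its adaptor TYROBP, the kinases LYN, SYK and BTK, the phospholipase PLCG2, and 3 proteins that restrain such signalling, CD33, PTPN6 and INPP5D. They were chosen by name under a rule that used no measured values, although earlier results of these data were known when the choice was made. All 9 were among the 757 genes of the deposited table. Transcripts were counted in cells sorted as microglia from male mice after a transient ischemic attack (TIA), produced here as a brief occlusion of the middle cerebral artery with a filament, or after Sham surgery, a control operation without the occlusion. The groups were Sham, TIA 24h and TIA 3d, sampled 24 h or 3 d after the TIA, with 3 samples each from 3 animals per group. The methods give an age of 10 to 12 weeks for the mice of the study, apart from 1 older cohort, and name wild-type C57BL6/J mice among its strains without tying a strain to these samples. No transgene or drug was named for them. All groups shared the isolation, in which brains were perfused, kept in buffered salt with actinomycin D to block new transcription, dissociated with papain and enriched on Percoll. Live cells positive for CD45 and CD11b were then sorted, a gate that also admits other CD11b-positive cells such as border macrophages and some blood leukocytes. A later time point of the study was not analysed here.

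TREM2 is a surface receptor of microglia that binds lipids, lipoproteins and debris. It has no signalling tail of its own and pairs with TYROBP (also called DAP12), whose cytoplasmic motif is phosphorylated by SRC family kinases such as LYN and then recruits the kinase SYK. SYK, with TEC family kinases such as BTK, activates PLCG2, which cleaves a membrane phospholipid into second messengers, and signalling through this route supports microglial survival, phagocytosis and lipid handling. The route is opposed by CD33, a sialic acid receptor that recruits the tyrosine phosphatase PTPN6 (SHP-1), and by INPP5D (SHIP1), a lipid phosphatase that removes the product of PI 3-kinase. Genetic variants at several of these genes are associated with the risk of Alzheimer's disease in humans.

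The bases before the transcription start are shown for 3 of the genes, the receptor Trem2 and the brakes Cd33 and Inpp5d, chosen because they hold a purine-rich motif there and their transcripts rose between the 2 time points, as given further on. The sequences are those of RefSeq on GRCm38.p6, each 250 bases long, 5′ to 3′ on the strand of the gene, with the motif GAGGAA or its reverse complement in capitals.
Trem2, chr17:48346151-48346400, plus strand: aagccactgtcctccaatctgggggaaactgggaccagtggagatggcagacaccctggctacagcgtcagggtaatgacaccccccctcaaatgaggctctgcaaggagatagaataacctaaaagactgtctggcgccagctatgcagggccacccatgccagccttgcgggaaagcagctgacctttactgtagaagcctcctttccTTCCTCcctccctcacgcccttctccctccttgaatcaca
Cd33, chr7:43533172-43533421, minus strand: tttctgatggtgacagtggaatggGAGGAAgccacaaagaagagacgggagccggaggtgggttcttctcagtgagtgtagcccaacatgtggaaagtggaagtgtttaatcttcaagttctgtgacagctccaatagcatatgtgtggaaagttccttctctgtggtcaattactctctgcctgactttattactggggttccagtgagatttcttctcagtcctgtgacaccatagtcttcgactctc
Inpp5d, chr1:87620062-87620311, plus strand: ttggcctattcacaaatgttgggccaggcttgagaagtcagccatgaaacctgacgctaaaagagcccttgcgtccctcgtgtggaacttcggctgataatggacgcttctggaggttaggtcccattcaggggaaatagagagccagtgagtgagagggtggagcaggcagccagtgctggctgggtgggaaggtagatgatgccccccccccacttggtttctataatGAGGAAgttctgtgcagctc
GAGGAA is the core of the sites bound by PU.1, a transcription factor of the ETS family that myeloid cells need. It was searched on both strands of windows of 300 bases, from 250 before to 50 after the start, and 7 of the 9 genes had such a window, Tyrobp and Lyn being the others. A match was found in 5 of the 7 genes, namely Trem2, Cd33, Inpp5d, Syk and Btk, against 31.3% of 27025 genes with a window and 39.7% of the 589 panel genes with one. The match of Trem2 began 40 bases before the start and lay on the opposite strand, that of Cd33 began 226 bases before it, and Inpp5d had 1 match that began 20 bases before its start and another, outside the stretch shown, on the opposite strand just after it. Syk had windows at different starts, with 0 matches in the upstream window and 1 in the downstream window, and the match of Btk lay after its start. The longer form GAGGAAGT, which contains GAGGAA, was found only in Inpp5d among the 7, against 3.69% of all genes with a window and 4.75% of panel genes. Of the 7 genes, Syk and Btk hold a match and were higher at TIA 3d without passing the test between the time points. Plcg2 and Ptpn6 passed it and hold none, and no relation between match and rise was tested. These matches describe the letters of the windows and were not tested as binding sites.

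The values below are log2 normalized counts as deposited, and the whole counts behind them were recovered for each lane. Totals per lane ran from 6560 to 25582 for Sham, from 7248 to 10929 for TIA 24h and from 29200 to 62883 for TIA 3d, so every TIA 3d lane was deeper than every other lane, and depth and the TIA 3d group cannot be told apart. None of the 15 microglial marker genes outside this pathway stood at 0, but their summed normalized level was 6512 to 8217 at TIA 3d against 422 to 1265 at TIA 24h, and Sham reached from 487 to 7167. Sham replicate 1 and Sham replicate 3 stood apart, since these 15 genes took 29.2% of all counts in the first and 3.78% in the other. The summed level of 19 oligodendrocyte markers moved the other way, with 158 to 228 at TIA 3d against 549 to 1149 at TIA 24h and 215 to 1120 for Sham, and their lowest gene count was 1 or 2 in each group. For the single border macrophage marker measured, Cd163, the level was 16 to 20 at TIA 3d against 21 to 31 at TIA 24h and 15 to 37 for Sham. Fits with the lane total as a covariate and with the microglial genes as the scale are given below, and the part of the oligodendrocyte level in the results was not tested. In bulk RNA of this kind, fewer cells of a type and less RNA per cell cannot be told apart.

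All 9 genes had their highest group mean at TIA 3d and their lowest at TIA 24h, with Sham between them. Between the 2 time points 7 of the 9 rose by 3.65-fold to 8.7-fold: Trem2, Tyrobp, Lyn, Plcg2, Cd33, Ptpn6 and Inpp5d. Syk and Btk were 1.94-fold and 2.01-fold higher and did not pass the test. These differences depend on how the lanes were scaled. Centred on other microglial genes of the same lane, 8 of the 9 were lower at TIA 3d and none passed, and scaled to the lane total Syk and Btk were close to 0 (both given below). Neither time point differed from Sham in any of the 9 genes after adjustment. The tests were moderated contrasts in limma on all 9 samples, with p values adjusted by Benjamini-Hochberg over the 757 genes and a threshold of 0.05. Between TIA 3d and TIA 24h, 19.2% of all genes passed and 11.6% passed with a higher level at TIA 3d, beside the 7 of 9 here. The median log2 difference was 1.99 over the 9 genes and -0.25 over all genes. Without TIA 24h replicate 2, TIA 24h replicate 3, TIA 3d replicate 1 or TIA 3d replicate 3, none of the 9 passed in this contrast and neither did any other gene (0% of all genes). Without Sham replicate 2, 4 of the 9 passed, beside 11.9% of all genes. In each of these fits all 9 stayed higher at TIA 3d, and the lowest adjusted p in limma was between 0.0271 and 0.0884. With the log2 total count of the lane as a covariate none of the 9 and 0% of all genes passed, and 3 of the 9 were higher. In an ordinary linear model, without moderation, none of the 9 and 0% of all genes passed (lowest adjusted p = 0.0836 among the 9), and with voom on the recovered counts only Trem2 did (adjusted p = 0.0455), beside 12.8% of all genes.

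The size of the difference between the time points changed with the scaling, and so did its direction when the lanes were centred on the microglial genes, where the 9 values ran from -1.90 for Syk to 0.26 for Tyrobp. With counts scaled to the lane total, Trem2 differed by 1.89 and Tyrobp by 2.17 log2, the other 5 of the 7 by 0.92 for Cd33 to 1.26 for Inpp5d, and Syk and Btk by 0.01 and 0.06. In that setting only Trem2 and Tyrobp passed in limma, beside 45.4% of all genes, most of which were lower at TIA 3d. With quantile normalization the 9 differences ran from 0.48 for Syk to 1.83 for Inpp5d, with Trem2 at 1.63 and Tyrobp at 1.80, and none of the 9 passed, beside 0.925% of all genes. With each sample centred on its median they ran from 1.29 for Syk to 3.46 for Tyrobp.

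Trem2 reached 7.47, 7.48 and 7.64 log2 in TIA 3d replicates 1 to 3, against 5.05, 4.79 and 4.24 at TIA 24h, while Sham replicates 1 to 3 had 7.13, 5.96 and 4.97. The 3 TIA 3d samples lay above all others, and the TIA 24h samples overlapped only the lowest Sham sample. The counts behind these levels were 315, 209 and 365 for TIA 3d, 21, 15 and 10 for TIA 24h, and 146, 57 and 16 for Sham. Trem2 rose by 2.84 ± 0.51 on the log2 scale (SE), or 7.14-fold, from TIA 24h to TIA 3d (limma, adjusted p = 0.0229).

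Tyrobp, which carries the signal of TREM2 into the cell, reached 7.88, 7.65 and 8.32 log2 in the TIA 3d samples, against 4.98, 4.59 and 4.92 at TIA 24h, while the Sham samples had 7.52, 5.59 and 3.78. Its Sham samples spanned the whole range from below every TIA 24h sample to just under the TIA 3d samples, with counts of 191, 44 and 7. It was counted 420, 235 and 582 times in the TIA 3d lanes and 20, 13 and 16 times in those of TIA 24h. The rise of Tyrobp from TIA 24h to TIA 3d, 3.12 ± 0.70 log2 or 8.7-fold, was the largest of the 9 on the deposited values (limma, adjusted p = 0.0229). With quantile normalization that of Inpp5d was larger, 1.83 against 1.80. With the lane total as a covariate Tyrobp was at -0.37 and Trem2 at 0.77.

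**Figure D1:**
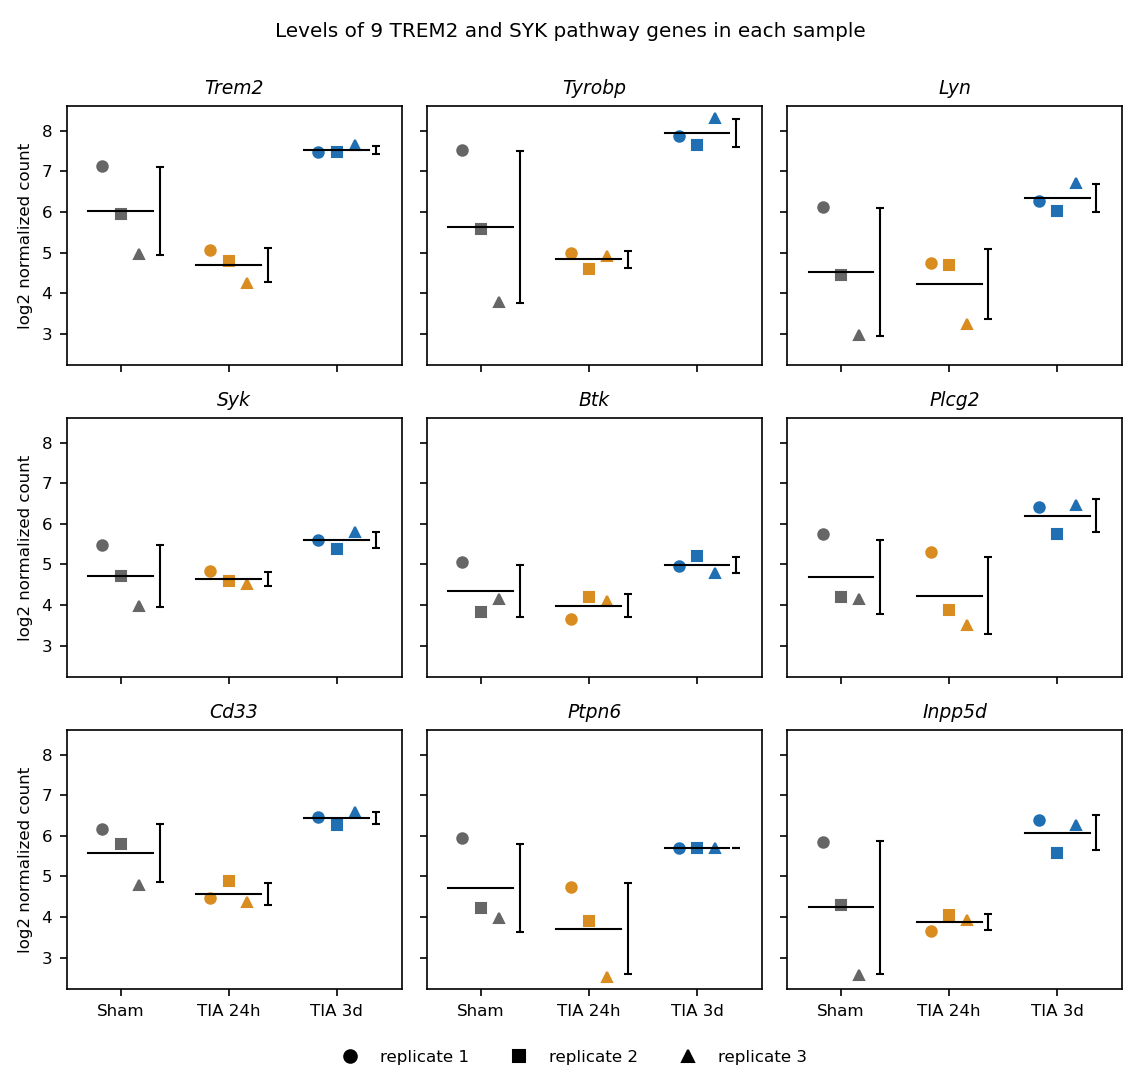
Deposited log2 normalized counts (vertical axis) of the 9 genes in the 3 samples of Sham, TIA 24h and TIA 3d, with replicates 1, 2 and 3 as circles, squares and triangles. Horizontal lines are group means and bars are ± 1 SD. In every panel the 3 TIA 3d samples lie above the 3 TIA 24h samples, and the Sham samples are the most spread in 7 of the 9 panels.

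Lyn, a SRC family kinase that phosphorylates the motifs of activating and of inhibitory receptors, had log2 levels of 6.28, 6.02 and 6.71 at TIA 3d, of 4.74, 4.69 and 3.24 at TIA 24h, with 6.13, 4.45 and 2.97 for Sham. The TIA 3d samples lay above every TIA 24h sample, whereas Sham replicate 1 lay among them. The TIA 3d lanes held 138, 76 and 191 counts of Lyn, those of TIA 24h held 17, 14 and 5, and the Sham lanes held 73, 20 and 4. Lyn rose by 2.11 ± 0.68 log2 between the time points, or 4.31-fold, with the highest adjusted p of the 7 that passed (limma, adjusted p = 0.0474).

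Syk, the kinase that docks on phosphorylated TYROBP, had log2 levels of 5.61, 5.39 and 5.79 at TIA 3d, of 4.83, 4.59 and 4.51 at TIA 24h, with 5.49, 4.71 and 3.97 for Sham. Its groups were closer together than those of Trem2 or Tyrobp, and Sham replicate 1 lay within the TIA 3d range. The counts of Syk were 87, 49 and 101 at TIA 3d, 18, 13 and 12 at TIA 24h, and 47, 24 and 8 for Sham. The difference between TIA 3d and TIA 24h was 0.96 ± 0.44 log2 and did not pass (limma, adjusted p = 0.121), although the samples of the 2 groups did not overlap. Group means of Syk were 5.60 ± 0.20 at TIA 3d, 4.64 ± 0.17 at TIA 24h, and 4.73 ± 0.76 for Sham (SD, n = 3).

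Btk, a TEC family kinase that phosphorylates PLCG2, had log2 levels of 4.97, 5.20 and 4.80 at TIA 3d, of 3.66, 4.21 and 4.09 at TIA 24h, with 5.07, 3.83 and 4.14 for Sham. Again the TIA 3d samples lay above the TIA 24h samples and Sham replicate 1 lay among them. Btk differed between the time points by 1.01 ± 0.43 log2, higher at TIA 3d, which did not pass (limma, adjusted p = 0.097). Btk was counted 56, 43 and 51 times in the TIA 3d lanes, 8, 10 and 9 times in those of TIA 24h, and 35, 13 and 9 times in the Sham lanes. With each sample centred on its median Btk passed (limma, adjusted p = 0.0477) and Syk did not (0.0673), beside 19% of all genes, and with array weights in limma both passed (adjusted p = 0.0408 and 0.0328), beside 41.5% of all genes. These weights were lowest for Sham replicates 3 and 1, 0.341 and 0.454, and highest for TIA 3d replicate 1, 2.89.

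Plcg2, the phospholipase downstream of SYK and BTK, reached 6.41, 5.75 and 6.46 log2 in the TIA 3d samples, against 5.30, 3.89 and 3.51 at TIA 24h, while the Sham samples had 5.75, 4.21 and 4.14. The TIA 3d samples lay above all others, although TIA 3d replicate 2 exceeded Sham replicate 1 by less than the rounding shown, and TIA 24h replicate 1 stood well above the other TIA 24h samples. The TIA 3d lanes held 151, 63 and 161 counts of Plcg2, those of TIA 24h held 25, 8 and 6, and the Sham lanes held 56, 17 and 9. Plcg2 rose by 1.98 ± 0.56 log2 between the time points, or 3.93-fold (limma, adjusted p = 0.0373).

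The 3 brakes rose between the time points as well. Cd33, the inhibitory sialic acid receptor, reached 6.46, 6.28 and 6.59 log2 in the TIA 3d samples, against 4.46, 4.89 and 4.38 at TIA 24h, while the Sham samples had 6.17, 5.80 and 4.78. Its TIA 3d samples lay above all 6 others, on 157, 91 and 176 counts, where TIA 24h had 14, 16 and 11 and Sham 75, 51 and 14. The rise from TIA 24h was 1.87 ± 0.43 log2, or 3.65-fold (limma, adjusted p = 0.0229).

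Ptpn6, the tyrosine phosphatase that CD33 recruits, had log2 levels of 5.69, 5.70 and 5.70 at TIA 3d, of 4.74, 3.89 and 2.51 at TIA 24h, with 5.96, 4.21 and 3.97 for Sham. The 3 TIA 3d samples were nearly equal and above all TIA 24h samples, and Sham replicate 1 lay above them. In TIA 24h replicate 3 it rested on 3 counts, for which an exact Poisson interval at 95% is 0.619 to 8.77 and covers counting error only. Ptpn6 rose by 1.99 ± 0.61 log2, or 3.96-fold (limma, adjusted p = 0.0421).

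Inpp5d, the lipid phosphatase whose promoter stretch is shown above, had log2 levels of 6.39, 5.58 and 6.28 at TIA 3d, of 3.66, 4.06 and 3.92 at TIA 24h, with 5.85, 4.30 and 2.56 for Sham. The Sham samples ranged from below all TIA 24h samples, with 3 counts in Sham replicate 3, to within the TIA 3d range, with 60 counts in Sham replicate 1. It was counted 149, 56 and 142 times in the TIA 3d lanes and 8, 9 and 8 times in those of TIA 24h. The TIA 24h counts were at or below the lane medians of 11, 9 and 8, and no background level was used in the fold given next. The rise from TIA 24h to TIA 3d was 2.21 ± 0.65 log2, or 4.61-fold (limma, adjusted p = 0.0385).

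In all 9 genes the 3 samples of TIA 3d lay above the 3 of TIA 24h, which 22.1% of the 757 genes showed. Over the 3 groups together, the moderated F test of limma passed in 0 of the 9 genes and in 0% of all genes. Its lowest adjusted p was 0.0533, for Trem2, Tyrobp and Cd33, and 7 of the 9 genes had an unadjusted p under 0.05 in limma, beside 31% of all genes. Without Sham replicate 1, 7 of the 9 passed the F test, beside 18% of all genes, and without Sham replicate 3, 5 did, beside 16.6%.

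**Figure D2:**
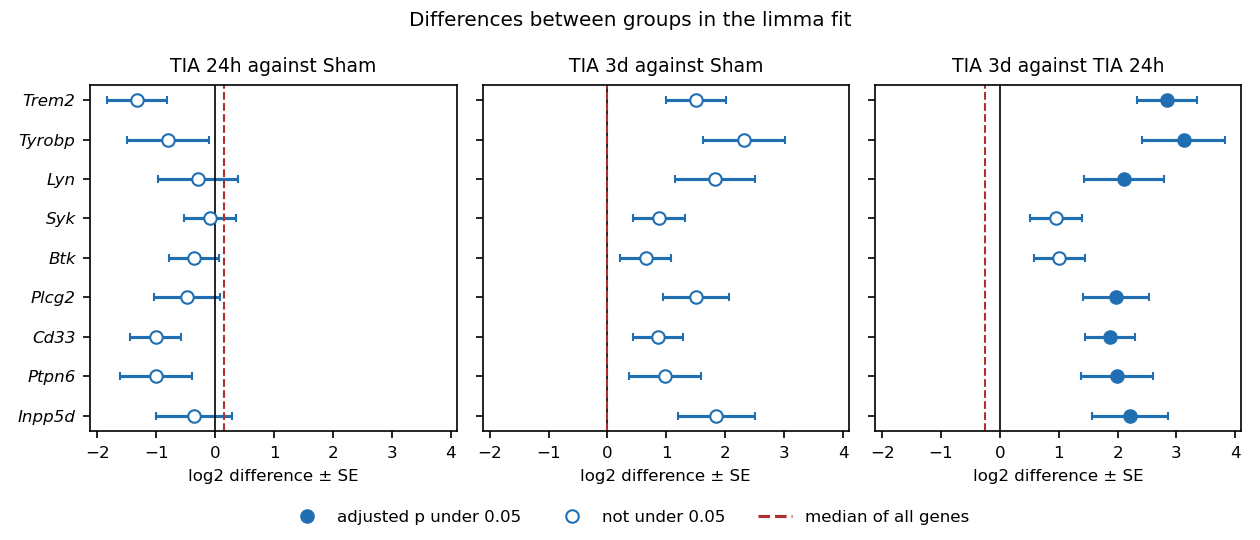
Log2 differences between group means in the limma fit (horizontal axis, ± 1 SE) for the 9 genes in the 3 comparisons. Filled points passed an adjusted p of 0.05, open points did not, the solid line is 0 and the dashed line is the median of all 757 genes. All points are below 0 for TIA 24h against Sham and above 0 in the other comparisons, and the 7 filled points are all in TIA 3d against TIA 24h.

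Against Sham, the 9 genes were lower at TIA 24h and higher at TIA 3d in their means, and none of these differences passed the test. At TIA 24h the differences ran from -1.33 ± 0.51 log2 for Trem2 and -1.01 ± 0.43 for Cd33 to -0.09 ± 0.44 for Syk. None of the 9 passed, with adjusted p values of 0.647 to 0.974 in limma, and 0% of all genes passed. An unadjusted p under 0.05 in limma was found for 2 of the 9, Trem2 and Cd33, and for 7.53% of all genes. The groups overlapped for every one of the 9, whereas 1.72% of all genes had all TIA 24h samples below all Sham samples. The median difference was -0.47 log2 over the 9 genes and 0.15 over all genes.

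At TIA 3d the largest differences from Sham were 2.32 ± 0.70 log2 for Tyrobp, 1.85 ± 0.65 for Inpp5d and 1.82 ± 0.68 for Lyn. Trem2 was 1.51 ± 0.51 and Plcg2 1.50 ± 0.56 log2 above Sham, and Ptpn6, Syk, Cd33 and Btk differed by 0.98, 0.87, 0.86 and 0.65. None of the 9 passed in limma (adjusted p 0.158 to 0.374), and 0% of all genes did. An unadjusted p under 0.05 in limma was found for 5 of the 9 and for 19.6% of all genes. The TIA 3d samples lay above all Sham samples for 4 of the 9, Trem2, Tyrobp, Plcg2 and Cd33, against 15.1% of all genes. The median difference was 1.50 log2 over the 9 genes and -0.01 over all genes. Without Sham replicate 1, 5 of the 9 passed in limma at TIA 3d against Sham, beside 11.1% of all genes, and with array weights 5 did, beside 23% of all genes. The comparisons with Sham at the 2 time points share the same 3 Sham samples, so their values are not independent of each other.

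Sham replicate 1, the deepest Sham lane, had the highest value for 9 of 9 genes, beside 33.9% of all genes, and Sham replicate 3, the shallowest, had the lowest for 8 of 9, beside 32.9%. Within TIA 24h the deepest lane had the highest value for 6 of the 9 and the shallowest the lowest for 6, beside 42% and 41.2% of all genes, and within TIA 3d the numbers were 7 and 6, beside 29.7% and 33%. The median range of the 9 genes over the 3 samples was 1.99 log2 for Sham, against 0.55 for TIA 24h and 0.40 for TIA 3d. As a share of all counts in the lane, which needs no housekeeping scaling, the 9 genes took 2.92% (95% Clopper-Pearson interval 2.72% to 3.14%), 1.75% (1.55% to 1.98%) and 1.19% (0.94% to 1.48%) in Sham replicates 1 to 3. At TIA 24h the shares were 1.35%, 1.34% and 1.10%, and at TIA 3d they were 3.04%, 3.02% and 2.96%. The TIA 3d lanes thus stood close together and above every TIA 24h lane, and the interval of Sham replicate 1 overlapped theirs while those of Sham replicates 2 and 3 did not. These intervals cover counting error only and leave out the spread between animals.

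**Figure D3:**
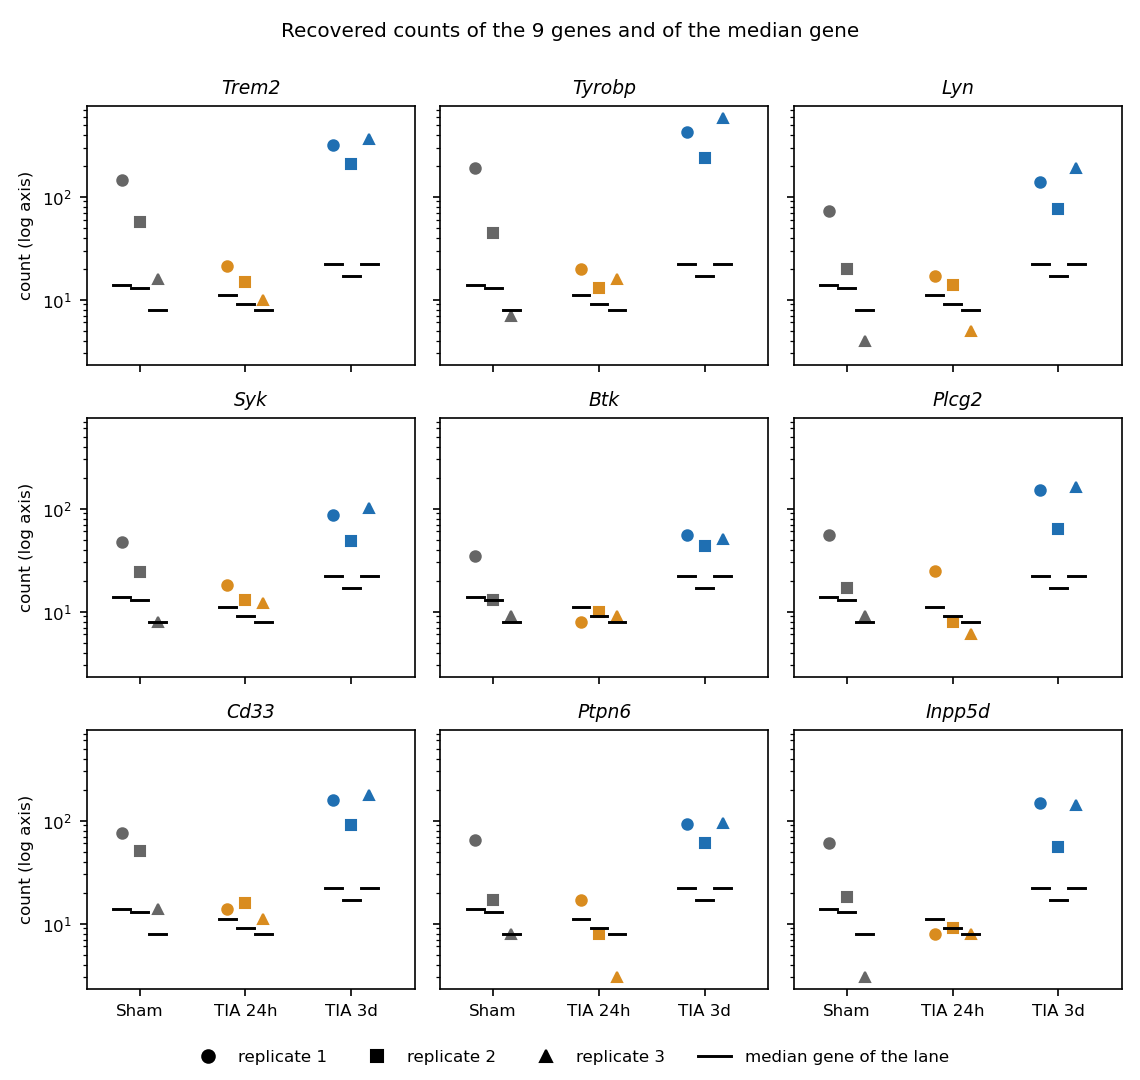
Recovered whole counts (vertical log axis) of the 9 genes in each sample, with the median count of all 757 genes of that lane as a short line. At TIA 3d every gene lies above the median gene of its lane, which had 22, 17 and 22 counts. At TIA 24h Inpp5d, with 8, 9 and 8 counts, and Btk, with 8, 10 and 9, lie at or near the medians of 11, 9 and 8. Both are under the median of 11. Ptpn6 had 17, 8 and 3 counts there, Plcg2 25, 8 and 6, and Lyn 17, 14 and 5, so each of these also had a count below its lane median.

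Set against other microglial transcripts of the same lane, Trem2 and Tyrobp differed little between the time points, Syk and Btk had lower means at TIA 3d, and none of the 9 passed the test, whereas 74.9% of all genes passed on this scale, all of them lower at TIA 3d. For each lane the mean log2 level of 15 microglial genes outside the pathway, among them P2ry12, Cx3cr1, Tmem119, Csf1r and C1qa, was subtracted. These 15 genes had mean levels of 8.19, 8.22 and 7.94 log2 in the TIA 3d lanes, against 5.91, 5.44 and 4.44 at TIA 24h, and the Sham lanes had 8.42, 6.82 and 4.88. Of the whole microglial list, 14 of 17 measured genes passed with a higher level at TIA 3d than at TIA 24h and 0 with a lower one, with a median of 2.96 log2. In that contrast 11 of 19 oligodendrocyte and 2 of 16 neuronal genes passed with a lower level and 0 with a higher one. So did 2 of 9 astrocyte, 2 of 8 endothelial and 2 of 18 blood leukocyte genes, again with 0 higher. Of 5 B cell genes 1 passed with a higher level, and over all genes 7.53% passed lower and 11.6% higher. Neuronal genes held 1 to 20 counts each in the TIA 24h lanes, against 3 to 21 in the deeper TIA 3d lanes. For blood leukocyte genes these ranges were 1 to 27 against 1 to 33, and for endothelial genes 2 to 18 against 3 to 20. No background level was used, and the part of such low counts in these falls was not tested.

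On this relative scale Trem2 differed between TIA 3d and TIA 24h by -0.02 ± 0.87 log2 and Tyrobp by 0.26 ± 0.88 (limma, adjusted p = 0.981 and 0.782). Their relative group means were -0.68, -0.56 and -0.59 for Trem2 and -1.08, -0.43 and -0.17 for Tyrobp, in the order Sham, TIA 24h and TIA 3d. The other 7 genes were lower at TIA 3d on this scale, by -0.65 for Inpp5d, -0.75 for Lyn, -0.87 for Ptpn6, -0.88 for Plcg2 and -0.99 for Cd33. The lowest values were those of Btk, -1.85 ± 0.95, and of Syk, -1.90 ± 0.90, and none of the 9 passed (limma, lowest adjusted p = 0.0602, for Syk). On this scale the median of all genes moved to -3.10 log2, and all 9 genes lay above it. The TIA 24h values rest on 18, 13 and 12 counts for Syk and on 8, 10 and 9 for Btk. The median genes of those lanes had 11, 9 and 8, and the part of such low counts was not tested.

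**Figure D4:**
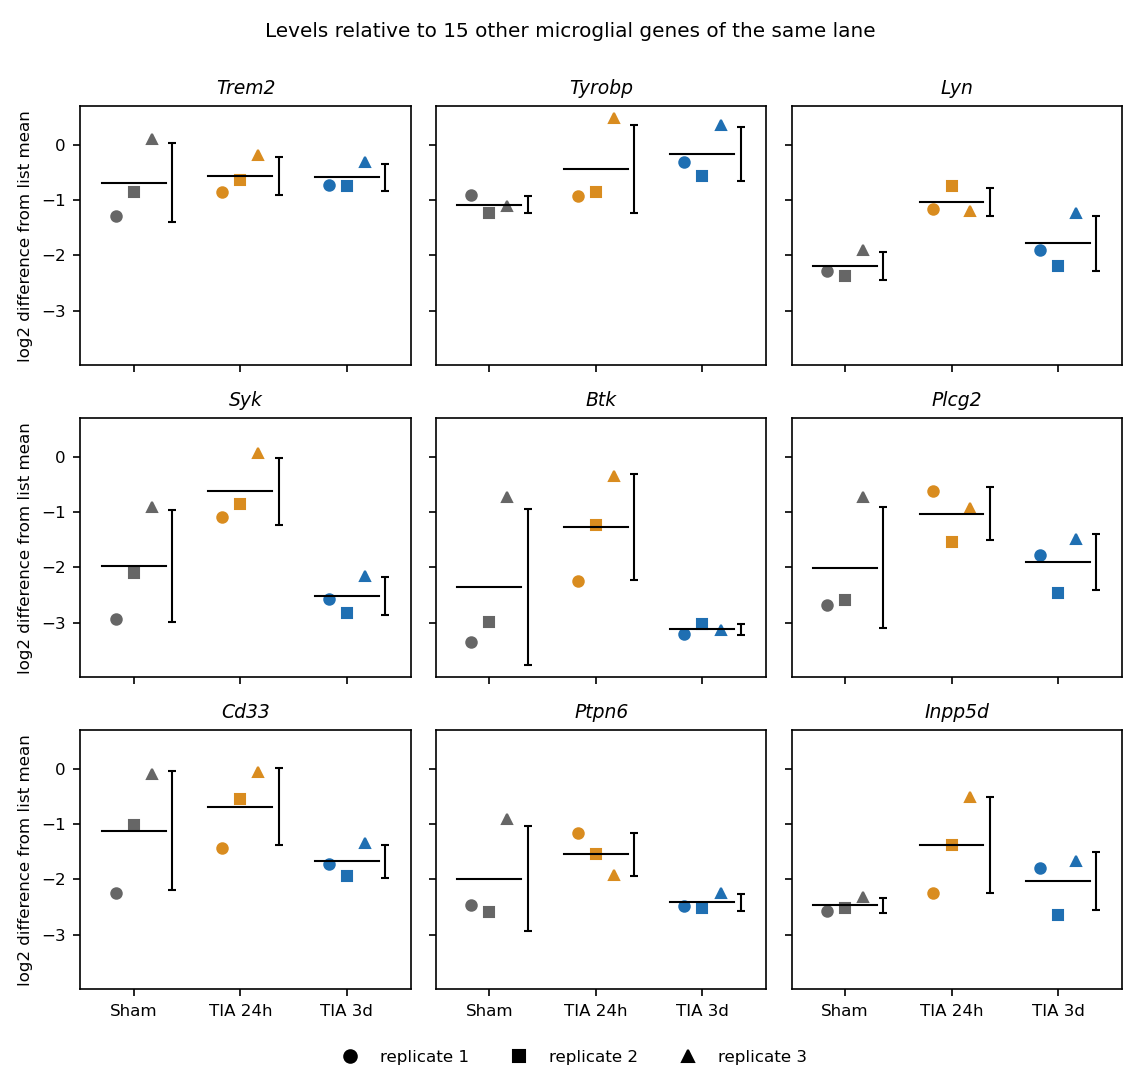
Log2 level of each of the 9 genes minus the mean log2 level of 15 microglial genes of the same lane (vertical axis), with group means as lines and ± 1 SD as bars. Trem2 has nearly the same mean in the 3 groups, -0.68, -0.56 and -0.59. Syk and Btk are highest at TIA 24h, where their means are -0.62 and -1.27, and lowest at TIA 3d, where they are -2.52 and -3.12.

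Differences between 2 genes within a lane do not depend on how the lanes were scaled. Each gene has its own probe, so such a difference is read only for how it changed between lanes. A lane factor cancels in it, but a background added to the counts would not. At TIA 24h the counts were low, with 21, 15 and 10 for Trem2 and 18, 13 and 12 for Syk. Btk had 8, 10 and 9 there and Inpp5d 8, 9 and 8, beside lane medians of 11, 9 and 8. The part of such low counts in these differences was not tested. Syk minus Trem2 was -1.86, -2.09 and -1.85 log2 in the TIA 3d lanes, against -0.22, -0.21 and 0.26 at TIA 24h, and the Sham lanes had -1.64, -1.25 and -1.0. All TIA 24h lanes lay above all other lanes in this difference, and all TIA 3d lanes lay below. Syk minus Tyrobp was -2.27, -2.26 and -2.53 in the TIA 3d lanes, against -0.15, 0.00 and -0.42 at TIA 24h and -2.02, -0.87 and 0.19 for Sham, so the TIA 3d lanes were again the lowest, while the Sham lanes spanned the TIA 24h values. Cd33 minus Trem2, a brake against the receptor, was -1.0, -1.20 and -1.05 in the TIA 3d lanes, against -0.58, 0.09 and 0.14 at TIA 24h and -0.96, -0.16 and -0.19 for Sham. In this difference the TIA 3d lanes were the lowest and the Sham and TIA 24h lanes overlapped. Inpp5d minus Syk ran the other way, with 0.78, 0.19 and 0.49 in the TIA 3d lanes, against -1.17, -0.53 and -0.58 at TIA 24h and 0.35, -0.42 and -1.42 for Sham. The TIA 3d lanes lay above those of TIA 24h, and the Sham lanes overlapped both. Btk minus Trem2 was -2.49, -2.28 and -2.84 in the TIA 3d lanes, against -1.39, -0.58 and -0.15 at TIA 24h and -2.06, -2.13 and -0.83 for Sham, so the TIA 3d lanes were the lowest and the Sham lanes overlapped those of TIA 24h. Tyrobp minus Trem2 was 0.42, 0.17 and 0.67 in the TIA 3d lanes, against -0.07, -0.21 and 0.68 at TIA 24h and 0.39, -0.37 and -1.19 for Sham, and all groups overlapped. These are all 6 differences computed, and none was tested.

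Of the other genes of the pathway, 35 were measured, and 7 of them rose and 1 fell between TIA 24h and TIA 3d, with a median difference of 0.71 log2. Over all genes 11.6% rose and 7.53% fell in this contrast. These calls depend on the setting as well. Centred on the microglia list, 0 of the 757 genes passed with a higher level at TIA 3d. The same held with the lane total as a covariate and in the ordinary linear model, and with quantile normalization 3 of the 757 did. The largest rises were those of Pik3r1, a regulatory subunit of PI 3-kinase, by 2.36 ± 0.55 log2, of Itgam, which encodes the CD11b antigen used in the sort, by 2.20 ± 0.60, and of Pik3cg, a catalytic subunit of PI 3-kinase, by 2.03 ± 0.53 (limma, adjusted p = 0.0229, 0.0334 and 0.0304). Pik3r1 was counted 121, 36 and 94 times in the TIA 3d lanes, 9, 8 and 2 times in those of TIA 24h, and 17, 17 and 6 times in the Sham lanes. Klrk1, the NKG2D receptor of natural killer cells, fell by 1.93 ± 0.47 on the log2 scale (limma, adjusted p = 0.0245), on counts that overlapped before scaling, 10, 9 and 14 in the TIA 3d lanes and 19, 16 and 11 in those of TIA 24h. Its TIA 3d counts lay below the lane medians of 22, 17 and 22, and no background level was used here. None of the 35 passed against Sham at either time, with medians of -0.05 log2 at TIA 24h and 0.59 at TIA 3d.

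By role, 2 of 6 measured receptors that signal through similar adaptors or through SYK rose and 1 fell, Itgam and Fcer1g being the first and Klrk1 the other. Fcer1g, an adaptor subunit of Fc receptors with the same kind of motif as TYROBP, rose by 1.75 ± 0.53 log2, with 178, 98 and 251 counts where TIA 24h had 17, 19 and 17. Among 9 inhibitory receptors and phosphatases 2 rose and 0 fell, the inhibitory Fc receptor Fcgr2b by 1.95 ± 0.46 and the collagen receptor Lair1 by 1.88 ± 0.52. Ptprc, which encodes CD45, the other antigen of the sort, was 1.09 ± 0.45 log2 higher and did not pass (limma, adjusted p = 0.0919). Among 4 kinases, adaptors and exchange factors only Blnk, an adaptor that links SYK to PLCG2, rose, by 1.41 ± 0.45. Vav1, an exchange factor, had a larger difference, 1.73 ± 0.59, and did not pass (limma, adjusted p = 0.055), on 196, 103 and 189 counts where TIA 24h had 19, 20 and 13. Blnk is also 1 of 5 measured B cell markers, and the other 4 did not rise. Among 14 lipid kinases and downstream genes 2 rose and 0 fell, the Pik3r1 and Pik3cg named above. Of 2 measured TREM2 ligands and shedding genes neither passed, although Apoe, a lipoprotein that binds TREM2, was 3.07 ± 1.05 log2 higher at TIA 3d (limma, adjusted p = 0.0551), on 293, 54 and 446 counts where TIA 24h had 19, 5 and 6. Fcer1g, Fcgr2b, Lair1, Blnk, Vav1, Ptprc and Apoe were named after their values were seen.

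The profiles of the 9 genes over the 9 samples, each centred on its own mean, differed from their common mean profile by a root mean square of 0.37 log2 for Trem2 and Cd33 to 0.65 for Tyrobp. The closest pairs were Plcg2 with Ptpn6 and Syk with Btk, both at 0.40, and the most distant was Tyrobp with Btk at 1.19. Among genes outside the 9, Dock2, an exchange factor for RAC in blood cells and microglia, lay nearest to the mean profile at 0.22, followed by Pik3cg and Rab7, a GTPase of late endosomes, both at 0.25. Dock2 reached 6.54, 6.74 and 6.88 log2 in the TIA 3d samples, against 5.56, 4.97 and 4.62 at TIA 24h, while the Sham samples had 6.35, 5.34 and 4.56. These distances share lanes and depth with every other gene of the table and are given as a description.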

How the data were processed

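RNA of sorted microglia (about 65 ng per sample) was hybridised to a mouse neuroinflammation probe set and counted on an nCounter SPRINT instrument. The labels give 1000 to 1500 sorted cells, which looks few for this mass of RNA, and the sources used here do not settle it. The authors scaled each lane in ROSALIND to the geometric mean of its housekeeping probes, which geNorm had chosen, and deposited log2 normalized counts. The authors' methods leave out genes under the highest negative control, and whether this was done to the deposited table is not given in the sources used here. For each lane, 2 to the power of the deposited log2 values came out as whole multiples of the value of 1 count (100% of values within 0.01), which gave the counts, the lane totals and lane factors ranging over 3.58-fold.

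The samples were grouped by their titles. Each of the 757 genes was fitted with lmFit and eBayes of limma 3.58.1 in R 4.3.3 (7.23 prior degrees of freedom) with a mean per group over all 9 samples. The deposited values had no replicates below the level of the sample, and p values measure the spread between 3 samples. Contrasts were two-sided, p values were adjusted by Benjamini-Hochberg within each test, and the threshold was 0.05. The script was tested on simulated data. Symbols were matched to a RefSeq gene table (750 directly, 7 as older symbols, 0 unmatched), used for names only.

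Named genes were all 9 members, the 3 largest rises and 3 largest falls past the threshold among the pathway lists in each contrast, and the 3 genes with the most similar profile. The members and lists were chosen with earlier results of these data known. Alternatives were other scalings (median-centred samples, quantile normalization, counts scaled to the lane total, the microglia list), a low-value filter at the 0.25 quantile, a replicate block, the lane total as a covariate, other tests (no moderation, intensity trend with a robust prior, array weights, voom on recovered counts), each sample left out, and only the compared groups.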

Additional observations from a re-analysis of the deposited data

Results flagged for a closer look

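The shift from Sham was not the same at TIA 24h and TIA 3d for 7 of the 9 genes, tested as the contrast of TIA 3d with TIA 24h in limma, in which the shared Sham samples cancel. This is the contrast of the time points given above and no further result, and 19.2% of all genes passed in it. The change at TIA 3d exceeded that at TIA 24h by 2.84 log2 for Trem2, 3.12 for Tyrobp, 2.11 for Lyn and 1.98 for Plcg2. For the brakes it exceeded it by 1.87 for Cd33, 1.99 for Ptpn6 and 2.21 for Inpp5d. Each had a negative change at TIA 24h and a positive one at TIA 3d, and neither change passed against Sham in any of these genes.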

How the results depend on the processing

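For TIA 3d against TIA 24h, where 7 of 9 genes passed, 8 passed with median-centred samples and 9 with array weights, beside 144 and 314 of all 757 genes, and Btk then had adjusted p values of 0.0477 and 0.0408 in limma and Syk of 0.0673 and 0.0328. The count was 0 with quantile normalization, 2 with counts scaled to the lane total (Trem2 and Tyrobp), 0 centred on the microglia list, 0 with the lane total as a covariate, 0 in the ordinary linear model and 1 with voom (Trem2). Over all 757 genes these settings called 7, 344, 567, 0, 0 and 97 genes. With single samples left out it was 0 to 7, the 0 when TIA 3d replicate 1 or 3, or TIA 24h replicate 2 or 3, was dropped, 4 without Sham replicate 2 and 5 without TIA 24h replicate 1 or TIA 3d replicate 2, beside 90, 85 and 114 of all genes in these 3 fits and 0 in the 4 fits that gave 0. All 9 genes were higher at TIA 3d in every setting run but centring on the microglia list (1 of 9) and the lane total as a covariate (3 of 9). The F test over the 3 groups, 0 in the main fit, gave 3 with median-centred samples, 2 with counts scaled to the lane total, 3 with the low-value filter, 3 with the intensity trend, 9 with array weights and 0 to 7 with single samples left out. Over all genes these settings called 52, 181, 40 (of 568 tested), 50, 295 and 0 to 136 genes. TIA 3d against Sham gave 5 with array weights and 0 to 5 with single samples left out, beside 174 and 0 to 84 of all genes. TIA 24h against Sham gave 0 in all settings. The cause of these shifts was not tested. The scalings moved the median of all genes in TIA 3d against TIA 24h from -0.25 to 0.09 (median-centred), -1.19 (lane total) and -3.10 (microglia list). Median counts per gene of 8 to 14 in the Sham and TIA 24h lanes leave a wide counting error at such levels.

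Signs turned as follows, in log2. Centred on the microglia list, TIA 24h against Sham became 0.12 for Trem2, 0.65 Tyrobp, 1.16 Lyn, 1.36 Syk, 1.08 Btk, 0.98 Plcg2, 0.44 Cd33, 0.44 Ptpn6 and 1.09 Inpp5d. In that setting TIA 3d against Sham became -0.54 for Syk, -0.77 Btk, -0.55 Cd33 and -0.43 Ptpn6, and TIA 3d against TIA 24h -0.02 for Trem2, -0.75 Lyn, -1.90 Syk, -1.85 Btk, -0.88 Plcg2, -0.99 Cd33, -0.87 Ptpn6 and -0.65 Inpp5d. With the lane total as a covariate, TIA 24h against Sham became 0.16 for Tyrobp, 0.34 Syk, 0.12 Plcg2, 0.50 Inpp5d and 0.61 Lyn. TIA 3d against Sham then became -0.21 for Tyrobp, -0.26 Syk, -0.06 Plcg2, -0.39 Inpp5d, -0.11 Cd33, -0.56 Lyn and -0.56 Ptpn6, and TIA 3d against TIA 24h -0.37 for Tyrobp, -0.61 Syk, -0.18 Plcg2, -0.89 Inpp5d, -1.17 Lyn and -0.14 Ptpn6. With counts scaled to the lane total, Syk at TIA 24h against Sham became 0.10 and Btk at TIA 3d against Sham -0.11. With single samples left out, TIA 24h against Sham ranged from -1.72 to 0.14 for Tyrobp, -0.46 to 0.30 for Syk, -1.01 to 0.05 for Plcg2, -1.19 to 0.45 for Inpp5d and -1.06 to 0.52 for Lyn, the upper ends being those without Sham replicate 1, and Lyn was 0.20 without TIA 24h replicate 3.

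Replicate numbers do not pair the samples, since correlations of same-numbered deviations ran from -0.237 to 0.271. With the replicate number as a block, 7 of 9 genes passed at TIA 3d against TIA 24h, 3 in the F test and 0 against Sham at either time, beside 140, 54, and 1 (TIA 3d) or 0 (TIA 24h) of all genes.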

Other observations

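Ranks among the 757 probes of a lane do not depend on the scaling of the lanes. For 9 of the 9 genes all TIA 3d ranks lay above all ranks at TIA 24h, beside 18% of all genes, a description of the same contrast of time points. Trem2 stood between the 91.1 and 96.6 percentile in Sham, between 65.1 and 85.9 at TIA 24h and between 95.8 and 97.1 at TIA 3d, so its Sham and TIA 3d ranks overlapped. The narrowest gap was that of Plcg2, whose highest rank at TIA 24h was 89.8 and whose lowest at TIA 3d was 90.2. Syk, one of the genes that did not pass, stood at 52.8 to 87.8, 72.9 to 79.1 and 84.7 to 86.4, and Btk at 51.5 to 83.5, 29.2 to 58.0 and 73.7 to 84.3, in the order Sham, TIA 24h and TIA 3d.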
